A study of Mus musculus with 3 samples.

Results

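Messenger RNA of 10 genes that restrain cell growth and division was followed in mouse T cells cultured with LZ-8: Btg1, Btg2, Btg3, Tob1, Tob2, Txnip, Cdkn1a, Cdkn1b, Cdkn2c and Cdkn2d. They were taken by symbol from a table of 44788 gene symbols, and all 10 were found. The samples were 3 libraries of 1 group, made from splenic T lymphocytes that were isolated with CD90.2 beads. CD90.2 (Thy1.2) is found on the surface of mouse T cells. The spleens came from Balb/c females at 6 to 8 weeks of age. The culture medium was RPMI 1640, supplemented with serum at 2%, and exposure to LZ-8 lasted 10 h. LZ-8 is a small immunomodulatory protein made by a medicinal mushroom, Ganoderma lucidum. No untreated library was analysed here, so every value below is a level in treated cells and none is an effect of LZ-8.

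The BTG and TOB proteins share an N-terminal domain that binds the CNOT7 and CNOT8 deadenylases of the CCR4-NOT complex and so promotes shortening of poly(A) tails and decay of messenger RNA. In mice, BTG1 and BTG2 are known to keep naive T cells quiescent by lowering the amount of messenger RNA. TXNIP is an alpha-arrestin that binds thioredoxin and promotes internalisation of glucose transporters. Among the inhibitors of cyclin-dependent kinases (CDKs), p21 (Cdkn1a) and p27 (Cdkn1b) belong to the CIP/KIP family, which binds cyclin-CDK complexes. The proteins p18 (Cdkn2c) and p19INK4d (Cdkn2d) form part of the INK4 family, which binds CDK4 and CDK6 directly. T cells that leave quiescence are known to lower p27 and to raise D-type cyclins.

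The libraries held 13239482, 15007652 and 15683820 counts in replicates 1, 2 and 3. Levels are CPM, that is, counts set to a common scaled library size. Different genes were compared as CPM per kilobase (kb) of merged exons unless stated otherwise. Marker sums, level thresholds and the comparison of Btg3 with its copy are in CPM or counts and are not corrected for length. A floor of 3 counts was 0.236, 0.198 and 0.186 CPM. The copy of 18S ribosomal RNA took 5.83%, 2.37% and 0.992% of counts, the most in replicate 1. All 12 T cell markers averaged 10 CPM or more and summed to 3685 to 3920 CPM per library. The summed markers of B cells came to 15.2 to 16.9 CPM, those of myeloid cells to 14.4 to 16.9 CPM and those of NK cells to 12.9 to 15.5 CPM. Those of red cells and platelets came to 9.23 to 11.3 CPM and those of stroma to 0.186 to 1.18 CPM. Of the listed markers, 1 of 9 myeloid, 2 of 5 NK and 3 of 7 red cell and platelet genes had 0 counts. Most of the myeloid sum came from Mpeg1 (mean of 9.20 CPM) and Cd68 (5.57 CPM). Most of the NK sum came from Prf1 (12.7 CPM), and most of the red cell and platelet sum from Itga2b (7.90 CPM). Whether separate mice or cultures gave the 3 replicates is not in the labels, so their spread may be technical. Reads are not independent molecules, and intervals and floors cover counting error only. The share of each cell type and the RNA per cell cannot be told apart in bulk RNA.

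All 10 genes were above 1 CPM in at least 1 library, and their mean levels spanned 99.3-fold per kb. Of the 10, 6 lay above the median protein-coding gene of at least 1 CPM, which was at 7.67 CPM per kb over 10503 genes, and 4 lay below it, among them Btg3, whose low place depends on how its reads were counted. The median of the 10 was 14.3 CPM per kb. Btg1 was highest, Txnip, Btg2 and Tob2 followed, p21 and p27 genes were intermediate, and Tob1, Btg3 and the INK4 genes were lowest.

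**Figure D1:**
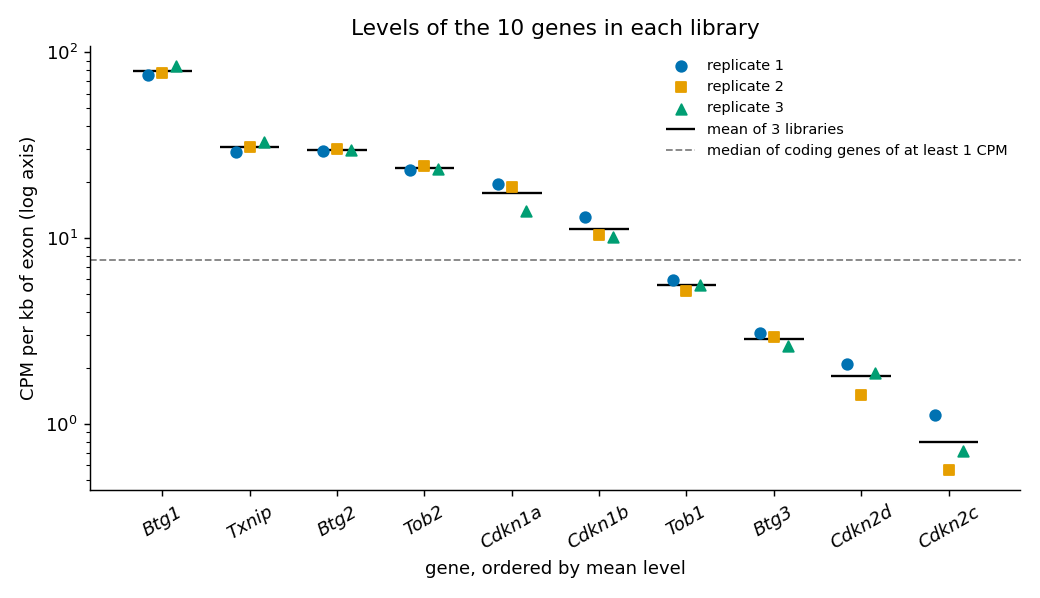
Level of each gene in CPM per kb of merged exons on a log axis, with a point per library, a bar at the mean of 3 libraries and a dashed line at the median protein-coding gene. The genes run from Btg1 at 79.1 to Cdkn2c at 0.797 CPM per kb, and the points of Cdkn1a, Cdkn1b, Cdkn2d and Cdkn2c are the most spread.

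Btg1, a founding member of the BTG family and a deadenylation factor, had 5057, 6224 and 7179 counts in replicates 1, 2 and 3, or 397, 410.5 and 445 CPM. Its mean was 79.1 ± 4.64 CPM per kb (SD, n = 3 libraries, here and below), at the 96.3 percentile of the protein-coding genes of at least 1 CPM. Replicate 3 was the highest. Btg2, its close paralog and a known p53 target, had 80.5, 83.1 and 82.0 CPM and a mean of 29.8 ± 0.472 CPM per kb, with almost no spread between libraries. Btg1 was 2.65-fold above Btg2 per kb, with log2 ratios of 1.36, 1.36 and 1.5. The ratio had the same sign in 3 of 3 libraries and exceeded its SD of 0.08, although an exact two-sided sign-flip test of 3 libraries cannot go below p = 0.25. That limit applies to every ratio below, each with p = 0.25 (adjusted p = 0.25 over 9 ratios) in the exact sign-flip test. Btg1 lies on chromosome 10 from 96617006 to 96622809 and Btg2 on chromosome 1 from 134075170 to 134079120 (GRCm38, the assembly of mm10; whole gene bounds of GENCODE M21).

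Tob2 and Tob1, larger relatives that bind the deadenylase and also the poly(A)-binding protein, differed widely. Tob2 had 155, 164 and 158 CPM and a mean of 23.8 ± 0.690 CPM per kb. Tob1, which is known as a brake on T cell activation, had 13.7, 11.8 and 12.8 CPM and a mean of 5.57 ± 0.407 CPM per kb. Tob1 was below Tob2 in every library, with log2 ratios of -1.96, -2.25 and -2.08, so Tob2 was 4.28-fold higher. With the longest transcript as length the mean log2 ratio was -2.78. The merged exons of Tob2 came to 6664 bases and its longest transcript to 4151. Tob1 lies on chromosome 11 from 94211454 to 94215495 and Tob2 on chromosome 15 from 81848272 to 81858796.

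Btg3, a BTG relative with a longer coding sequence, had 157, 178 and 170 counts, or 12.3, 11.7 and 10.5 CPM, and a mean of 2.87 ± 0.229 CPM per kb. Its gene lies on chromosome 16 from 78332637 to 78377192. Its row cannot be read alone, because a processed pseudogene, Gm7334, repeats its coding sequence. The annotated copy, on chromosome 17 from 50698688 to 50699443, has 1 exon of 756 bases that are identical to the start of the coding sequence of Btg3, which is 759 bases long. The row Gm7334 had 400, 523 and 516 counts, more than Btg3 in every library. The row Btg3 therefore held 28.2%, 25.4% and 24.8% of the summed CPM of the pair. Summed, they had 43.8, 46.2 and 42.5 CPM, and assigned wholly to Btg3 this would be 11 ± 0.474 CPM per kb, close to Cdkn1b at 11.2 and above the median protein-coding gene at 7.67. How the authors' counting divided reads between the 2 rows is not stated in the labels, so the level of Btg3 is uncertain. How much of the row Gm7334 came from Btg3 was not tested.

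Spliced sequence of Btg3 was compared with Gm7334 at the exon junctions. Of the 4 junctions of the Btg3 transcript, 3 lie in the coding sequence and stand unbroken in the copy, with 60 identical bases around each. They are shown 5′ to 3′ from the GENCODE M21 transcript, with the 2 bases that meet at the junction in capitals.
Btg3 junction 2: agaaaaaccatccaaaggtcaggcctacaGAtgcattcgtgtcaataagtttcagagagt
Btg3 junction 3: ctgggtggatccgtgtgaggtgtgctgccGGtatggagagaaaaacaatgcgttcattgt
Btg3 junction 4: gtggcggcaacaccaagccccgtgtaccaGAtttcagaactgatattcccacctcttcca

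**Figure D2:**
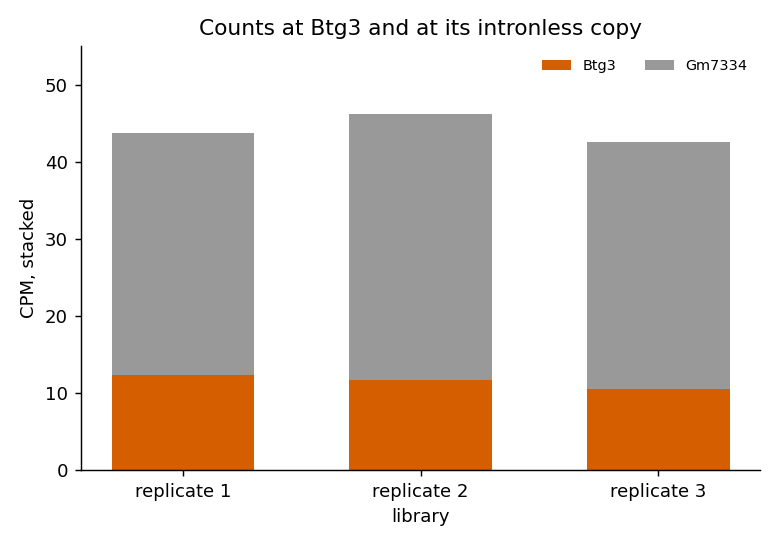
Stacked CPM of Btg3 (orange) and of its intronless copy Gm7334 (grey) in each library, from 0. The grey part is larger in each of the 3 libraries, at 31.4, 34.5 and 32.0 CPM against 12.3, 11.7 and 10.5 CPM for Btg3.

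The coding sequences of BTG and TOB members were 61.9% to 71.0% identical over aligned bases, those of Cdkn1a and Cdkn1b 63.6% and those of Cdkn2c and Cdkn2d 59.7%, so none of these paralogs is a near-identical copy of another. Btg1 matched Gm14519 at 98.7% over 312 bases, and the pseudogenes Btg1-ps1 and Btg1-ps2 at 87.5% and 87.4%, for which counts were not analysed here. Exons of Cxadr on the opposite strand overlap 17.3% of the exons of Btg3 and had 0, 0 and 5 counts. Exons of the antisense gene Gm15441 overlap 19.4% of those of Txnip and had 1, 1 and 2 counts. Gm49476 overlaps 4.34% of the exons of Tob2 and AC167363.2 overlaps 7.68% of those of Cdkn1a, both on the opposite strand, and counts of these were not analysed here. Without a stated strand setting, reads of overlapping genes cannot be told apart.

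The shares of the BTG and TOB members differed little between libraries. Their summed level was 137, 141 and 146 CPM per kb in replicates 1, 2 and 3. Btg1 made up 56 ± 1.5% of it, Btg2 21.1 ± 0.583%, Tob2 16.9 ± 0.638%, Tob1 3.95 ± 0.367% and Btg3 2.04 ± 0.226%. With the counts of Gm7334 added, Btg3 would make up 7.37 ± 0.441%. With the longest transcript as length, Tob2 made up 23.8% and Btg1 51.8%. The last family member, the germ cell gene Btg4, had 0 counts in all 3 libraries. The sum of the 5 members was 4.33-fold above that of Cnot7 and Cnot8, the deadenylases they bind, at 141 ± 4.58 against 32.7 ± 2.34 CPM per kb. The log2 ratios were 2.19, 2.08 and 2.08, nearly the same in every library. Cnot8 shares 760 bases at 97.8% with the row Gm18860, which had 173, 157 and 231 counts, so its level is uncertain.

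Txnip, whose product limits glucose uptake, had 1158, 1457 and 1661 counts, or 91.0, 96.1 and 103 CPM. Its mean of 30.9 ± 1.92 CPM per kb was at the 85.8 percentile, next to Btg2. It lies on chromosome 3 from 96557957 to 96561883. Txn1, the thioredoxin that TXNIP binds, was at 97.0 ± 40.8 CPM per kb, so Txnip was below it with log2 ratios of -2.27, -1.56 and -0.85. Txn1 itself varied, with 148, 95.6 and 62.6 CPM. With the longest transcript as length the mean log2 ratio was -1.42. Without division by length it was 0.01, with Txnip below Txn1 in replicate 1 and above it in replicates 2 and 3. Reads of Txn1 can be shared with Txn-ps1, which had 238, 150 and 87 counts and also varied.

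Cdkn1a, which encodes p21, had 889, 1018 and 798 counts, or 69.8, 67.1 and 49.4 CPM, with replicate 3 apart from the others. Cdkn1b, which encodes p27, had 750, 717 and 745 counts, or 58.9, 47.3 and 46.1 CPM, with replicate 1 apart. Their means were 17.5 ± 3.12 and 11.2 ± 1.55 CPM per kb. Cdkn1b was lower than Cdkn1a in every library, with log2 ratios of -0.60, -0.86 and -0.46. With the longest transcript as length the mean log2 ratio was -1.41, and without division by length it was -0.28. Cdkn1a lies on chromosome 17 from 29090976 to 29100727 and Cdkn1b on chromosome 6 from 134920401 to 134925513.

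The INK4 genes were near the lower end of expressed genes. Cdkn2d had 42, 34 and 48 counts, or 3.30, 2.24 and 2.97 CPM, with an exact 95% Poisson interval of 1.55 to 3.13 CPM in replicate 2. Cdkn2c had 38, 23 and 31 counts, or 2.99, 1.52 and 1.92 CPM, with an interval of 2.11 to 4.10 CPM in replicate 1. Their means were 1.80 ± 0.344 and 0.797 ± 0.282 CPM per kb, and Cdkn2d was higher in every library, with log2 ratios of 0.92, 1.33 and 1.40. Cdkn2c lies on chromosome 4 from 109660876 to 109667189 and Cdkn2d on chromosome 9 from 21288410 to 21291407. The other inhibitors were lower still. Cdkn2a had 2, 3 and 9 counts, Cdkn2b 10, 2 and 11, Cdkn1c 6, 5 and 5, and Cdkn3, which encodes a CDK phosphatase, 2, 2 and 3.

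Of the summed level of the CDK inhibitors among the members, Cdkn1a made up 55.8 ± 4.19%, Cdkn1b 35.8 ± 2.43%, Cdkn2d 5.83 ± 1.27% and Cdkn2c 2.53 ± 0.662%. The sum was 35.8, 31.3 and 26.7 CPM per kb in replicates 1, 2 and 3, highest in replicate 1, whereas the BTG and TOB sum was highest in replicate 3. Cdkn1a and Cdkn1b, the CIP/KIP members here, summed to 28.6 ± 4.31 CPM per kb, without Cdkn1c at 0.18. The D-type cyclins summed to 113 ± 4.82, a 3.98-fold difference with log2 ratios of -1.74, -2.01 and -2.22. Nearly all of the cyclin level was Ccnd2 at 107 ± 4.47 CPM per kb, with Ccnd3 at 5.83 ± 0.605, while Ccnd1 had 1, 2 and 4 counts. Ccnd2 shares 374 bases at 100% with Gm43126, for which counts were not analysed here. Ccnd3 shares 353 bases with the row Bysl and 881 bases at 96.3% with Ccnd3-ps. The levels of Ccnd2 and Ccnd3 are therefore uncertain. Of the other partners of the CIP/KIP proteins, Cdk4 at 101 CPM per kb was above the CIP/KIP sum. Each of the rest was below that sum, with Cdk6 at 12.3, Cdk2 at 5.44, Ccne1 at 4.70, Ccna2 at 0.773 and Ccne2 at 0.189 CPM per kb. Cdkn2c and Cdkn2d, the INK4 members here, summed to 2.60 ± 0.609 CPM per kb, without Cdkn2a at 0.26 and Cdkn2b at 0.38. Cdk4 and Cdk6 summed to 113 ± 5.65, with log2 ratios of -5.20, -5.85 and -5.36, or 44.4-fold. Cdk4 shares 641 bases with its neighbour Tspan31, which had 327, 386 and 432 counts. These are ratios of messenger RNA per length and say nothing of protein.

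**Figure D3:**
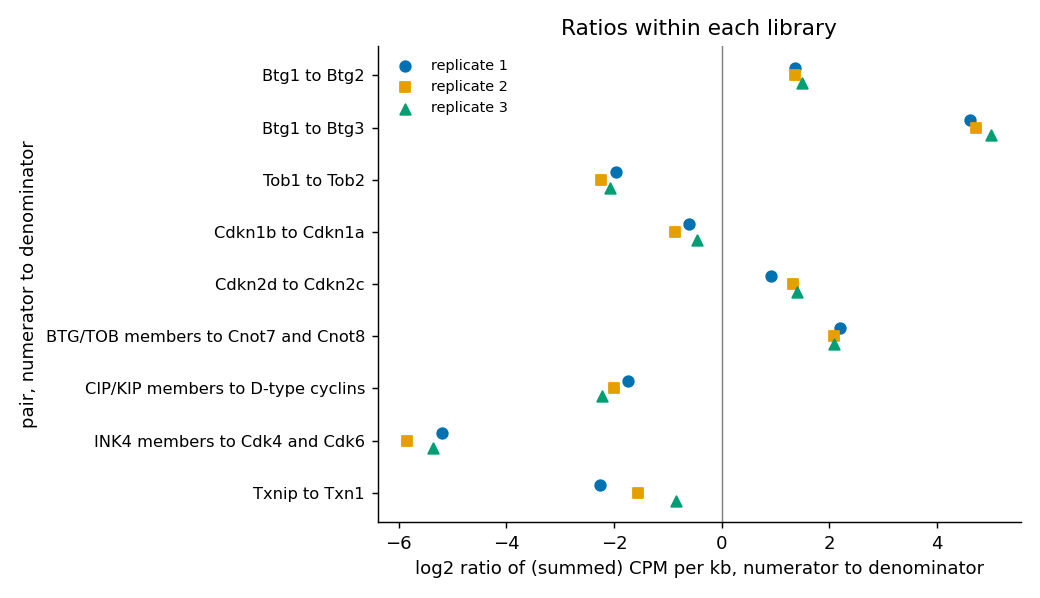
Log2 ratio of summed CPM per kb within each library for the 9 ratios, a point per library and a line at 0. The points of each pair lie on 1 side of 0, and those of Txnip to Txn1 are the furthest apart, from -2.27 to -0.85.

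The 10 genes were ordered by their mean level per kb in these same 3 libraries. The sorting set the direction of each neighbouring pair, so what follows describes the order and is no independent test of it. Of 9 neighbouring pairs, 8 kept 1 sign in the 3 libraries, with a mean log2 ratio above its SD. Each of these had p = 0.25 in an exact sign-flip test (adjusted p = 0.281 over 9 pairs). The exception was Txnip and Btg2, with a log2 ratio of 0.05 ± 0.08, so their order could not be told (p = 0.5 in the exact test). The closest of the other neighbours were Btg2 over Tob2 at 0.33 ± 0.02 and Tob2 over Cdkn1a at 0.46 ± 0.27. The middle of the order depended on the length used. With the longest transcript, Tob2 at 38.3 ± 1.11 CPM per kb came directly after Btg1, and next came Txnip at 34.2, Cdkn1a at 29.9 and Btg2 at 29.8, where neither Txnip and Cdkn1a nor Cdkn1a and Btg2 differed beyond their spread. In that order 7 of 9 neighbours differed beyond their spread. Btg1 was first and Tob1, Btg3, Cdkn2d and Cdkn2c were the last 4 under both lengths. With the counts of Gm7334 added, Btg3 stood next to Cdkn1b, with a log2 ratio of Cdkn1b to Btg3 of 0.01 ± 0.21.

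A chi-square test of the 3 counts of each gene over all genes, adjusted by the Benjamini-Hochberg method, called 42.8% of 15392 genes at an adjusted p of 0.05, and 4 of the 10 members. That share is near the background and is no property of these genes. Btg1 (adjusted p = 4.87e-09) and Txnip (adjusted p = 0.0138) were called by the chi-square test and highest in replicate 3, the direction of 19.1% of genes. Cdkn1a (adjusted p = 8.13e-13) and Cdkn1b (adjusted p = 7.35e-06) were called and highest in replicate 1, the direction of 17.9% of genes. The folds between the highest and the lowest library were small, 1.12 for Btg1, 1.13 for Txnip, 1.41 for Cdkn1a and 1.28 for Cdkn1b. The other 6 members, Btg2, Btg3, Tob1, Tob2, Cdkn2c and Cdkn2d, did not pass, with adjusted p-values of 0.0544 to 0.819 in the chi-square test. For Cdkn2c and Cdkn2d the small counts limit what the test can show, since their highest and lowest libraries differed 1.97- and 1.47-fold.

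**Figure D4:**
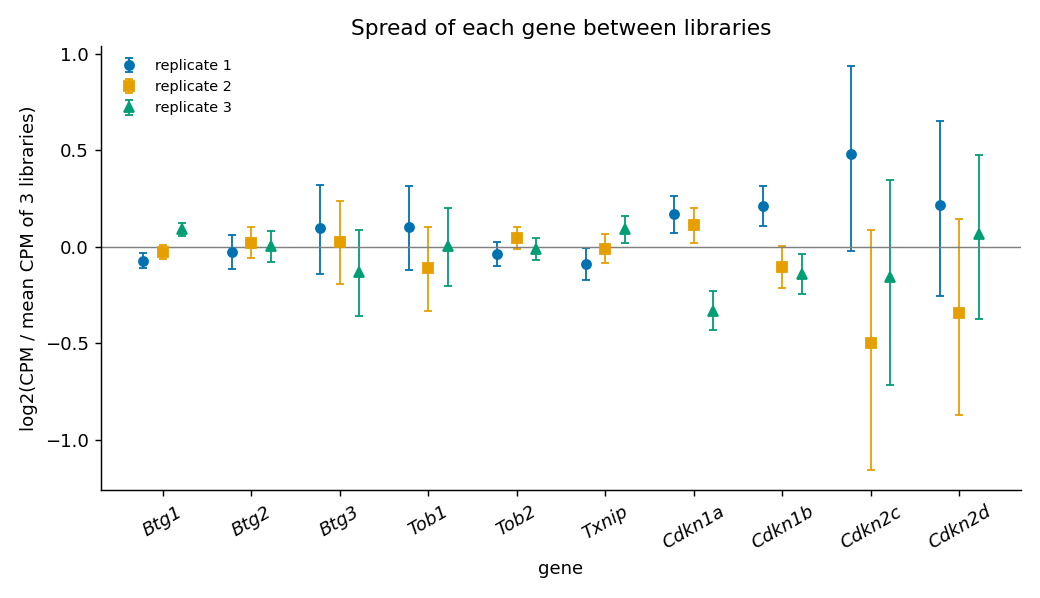
Log2 of CPM over the mean of the 3 libraries for each gene, a point per library with its exact 95% Poisson interval, which covers counting error only. Btg2 and Tob2 stay close to 0, Cdkn1a is low in replicate 3, Cdkn1b is high in replicate 1, and the intervals of Cdkn2c and Cdkn2d are the widest.

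The calls measured libraries against counting noise alone. With the spread between replicates of genes of like level in the noise (edgeR's trended negative binomial dispersion), 0 of 10 members were called, against 2.31% of 13676 genes. Here 0 members had an unadjusted p under 0.05. That dispersion was estimated from the same libraries that were compared. Few calls therefore follow by construction, and the members are not shown to be alike between libraries. Without replicate 3 the chi-square test no longer called Btg1 (adjusted p = 0.22), Txnip (0.347) or Cdkn1a (0.597) and called Cdkn2c (0.0418), so it called 2 members. Without replicate 1 it no longer called Txnip (adjusted p = 0.161) or Cdkn1b (0.796) and called 2. Libraries also followed a smooth trend with exon length and GC content, which predicted a log2 ratio of replicate 1 to replicate 3 of -0.19 for Btg1, where -0.16 was observed. For Txnip it predicted -0.03 where -0.18 was observed, for Cdkn1a 0.05 where 0.50 was observed, and for Cdkn1b -0.17 where 0.35 was observed. With that trend removed, 3 of 10 members were called against 36.9% of genes, Btg1 with an adjusted p of 0.0289, Cdkn1a with 2.73e-11 and Cdkn1b with 5.38e-12 in the chi-square test. Txnip missed the threshold there with an adjusted p of 0.0584. The 18S share was highest in replicate 1 and lowest in replicate 3, and its part in these differences was not tested.

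As a description of replicate spread, the coefficient of variation was 1.58% for Btg2 and 2.90% for Tob2, lower than in all but 3.48% and 14.3% of protein-coding genes within 0.5 log2 units of their level. It was 17.8% for Cdkn1a and 13.9% for Cdkn1b, at the 91.6 and 81.7 percentiles of such genes. Cdkn2c had 35.4%, at the 85.5 percentile, and Cdkn2d 19.1%, at the 52.0 percentile, in the middle of genes of its level. Btg1, Txnip, Tob1 and Btg3 had 5.86% to 7.96%, between the 26.7 and 43.9 percentiles. In edgeR, the estimated biological coefficient of variation was 0.0999 for Btg2, 0.102 for Tob2, 0.152 for Cdkn1a and 0.241 for Cdkn2c, beside 0.153 over all genes. These values borrow spread across genes and depended on the tool. DESeq2's gene-wise estimate was 0.189 for Cdkn1a and 0.301 for Cdkn2c. For Btg2, Btg3, Tob1 and Tob2 it was 0.0001, an identical value that reads as a lower bound rather than a measured spread.

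The genes these brakes act with were then listed by their level. In the list of 16 deadenylation genes, which holds CCR4-NOT and PAN2-PAN3 subunits, poly(A)-binding proteins and the BTG-binding methyltransferase gene Prmt1, all 16 averaged 10 CPM or more and the median was 16.4 CPM per kb. Pabpc1 led it at 259 ± 9.38 and Prmt1 followed at 97.5 ± 12.1 CPM per kb. Among 9 cyclin and CDK genes of G1 and S phase, 6 reached 10 CPM, led by Ccnd2 and by Cdk4 at 101 ± 6.27 CPM per kb, while 2 did not reach 1 CPM in any library. Among 8 RB and E2F genes, 6 reached 10 CPM, led by E2f4, an E2F known as a repressor in quiescent cells, at 97.1 ± 5.18 CPM per kb and by Rbl2 at 11.1 ± 0.449. Of 7 genes that act in p27 turnover, 5 reached 10 CPM, led by Skp1a at 52.1 ± 7.39 and Rnf123 at 26.5 ± 0.935 CPM per kb.

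Among 14 genes of the p53 list, which left out Cdkn1a and Btg2, 11 reached 10 CPM while 2 stayed below 1 CPM in each library. Bax was highest at 79.9 ± 25.5 CPM per kb, followed by Trp53 at 63.7 ± 5.04. In the list of 12 arrestin and thioredoxin genes 11 reached 10 CPM, led by Txn1 and by Txnrd1 at 44.4 ± 4.87 CPM per kb. In the quiescence list 8 of 9 did, led by Slfn2 at 482 ± 24 and Foxp1 at 34.8 ± 2.2 CPM per kb. Between libraries the chi-square test called 12 of 16 deadenylation genes, 6 of 8 tested cyclin and CDK genes, 5 of 8 RB and E2F genes and 5 of 7 p27 turnover genes. It called 6 of 11 tested arrestin and thioredoxin genes, 6 of 12 tested p53 genes and 7 of 9 quiescence genes, beside 42.8% of all genes. High counts give this test more power, and the lists were chosen with earlier results of these data known.

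**Figure D5:**
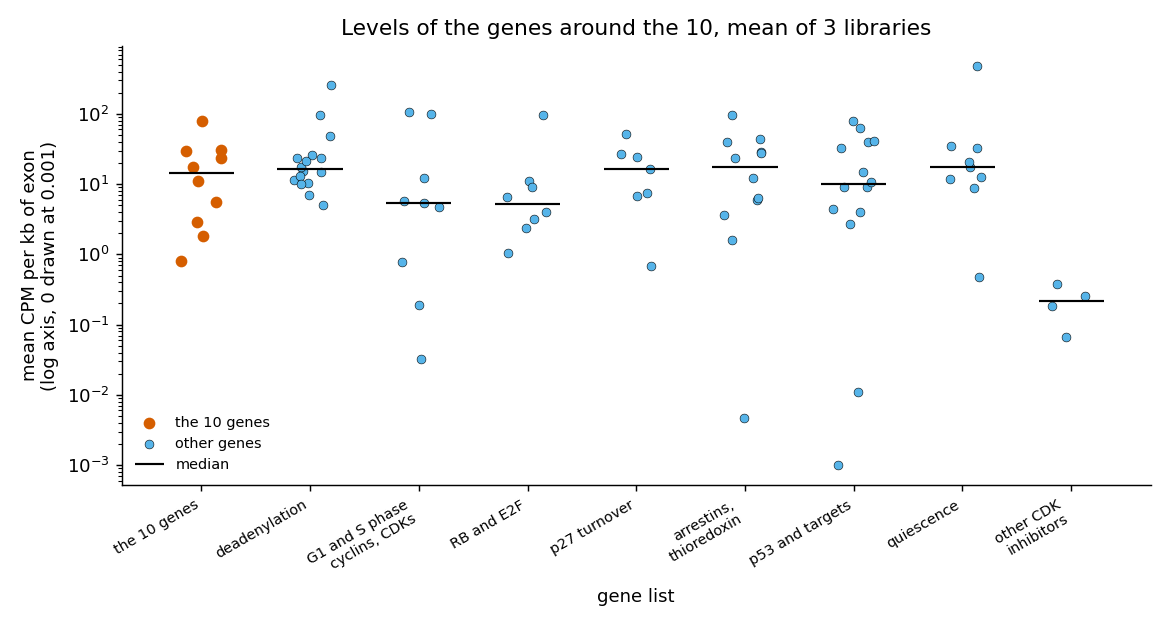
Mean CPM per kb on a log axis of the 10 genes (orange) and of each list of genes they act with (blue), a point per gene and a bar at the median, with a level of 0 drawn at 0.001. The 10 genes have a median of 14.3, near the 16.4 of the deadenylation list and above the 0.221 of the other CDK inhibitors.

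Promoters of Btg1, Txnip and Btg2, the 3 highest members per kb of merged exons, are shown because they hold the rarer motifs searched for. Windows run from 250 bases before to 50 after the start site, and come from RefSeq (GRCm38.p6), which had 13 windows for the 10 members. Sequences are 5′ to 3′ on the gene's strand, with motif matches in capitals.
Btg1 promoter, chr10:96616751-96617050, plus strand: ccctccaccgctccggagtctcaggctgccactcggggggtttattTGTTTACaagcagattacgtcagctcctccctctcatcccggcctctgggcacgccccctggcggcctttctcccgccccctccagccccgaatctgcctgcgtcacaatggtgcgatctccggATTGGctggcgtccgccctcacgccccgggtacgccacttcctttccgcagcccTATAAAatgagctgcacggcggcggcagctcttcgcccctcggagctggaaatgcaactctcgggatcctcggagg
Txnip promoter, chr3:96557707-96558006, plus strand: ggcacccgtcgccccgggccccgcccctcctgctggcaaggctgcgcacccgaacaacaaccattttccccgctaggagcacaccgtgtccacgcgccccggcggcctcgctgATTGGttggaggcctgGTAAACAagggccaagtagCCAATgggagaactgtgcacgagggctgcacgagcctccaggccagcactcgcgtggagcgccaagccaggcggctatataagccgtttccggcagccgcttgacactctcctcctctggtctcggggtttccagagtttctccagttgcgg
Btg2 promoter, chr1:134079106-134079405, minus strand: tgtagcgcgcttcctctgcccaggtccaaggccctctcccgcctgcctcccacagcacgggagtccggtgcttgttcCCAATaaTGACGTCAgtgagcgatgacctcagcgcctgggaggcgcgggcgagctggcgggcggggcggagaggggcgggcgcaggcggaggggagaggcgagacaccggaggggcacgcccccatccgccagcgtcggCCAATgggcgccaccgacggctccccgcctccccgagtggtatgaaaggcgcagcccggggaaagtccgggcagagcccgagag

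Motifs were searched on both strands, and no 2 matches overlapped in these windows. TGTTTAC, a core bound by forkhead factors, stood in 2 of the 13 windows, those of Btg1 at -204 and Txnip at -121 from the start site, and in 3.65% of 32851 windows of all genes. In Txnip it is on the opposite strand and reads GTAAACA. TGACGTCA, the cAMP response element, stood only in the window of Btg2 at -166, and in 1.79% of all windows. CCAAT, the box bound by NF-Y, stood in 9 of the 13 windows and 37.4% of all. TATAAA stood in those of Btg1, at -26, and Tob1, at -47, and in 13.6% of all. CACGTG, the E-box core, stood in 1 window of Cdkn2c and 7.15% of all, and TGANTCA, the AP-1 motif, in 0 of 13 and 7.81% of all. GC content of the member windows was 44.0% to 75.7%, against a median of 52.7% over all windows. All but the lowest, a window of Cdkn2c, lay above that median. The motif shares over all windows were not matched for GC content. A match describes the letters of the window and shows no binding.

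The 3′ untranslated regions (UTRs) of the members varied in length, from 373 bases in Cdkn2c and 439 in Btg3 to 3439 in Cdkn1b and 4166 in Btg1, against a median of 1133 bases over 10487 expressed genes. The pentamer ATTTA, the core of elements bound by decay factors, occurred in 9 of 10 members, where 42.3% to 98.4% of expressed genes with a 3′ UTR within 25% of each member's length held it. Btg1 held 11 and Cdkn1b 10, where 3′ UTRs within 25% of their length had medians of 6 and 5. Txnip held 0, although 81.7% of 1906 expressed genes with a 3′ UTR of like length held at least 1. The longer TATTTAT, which always contains ATTTA, occurred 3 times in Cdkn1b and 2 times in Btg3, where 54.7% and 12.2% of genes of like length held it. It occurred 1 time each in Btg2, Tob2 and Cdkn2d, where 41.9%, 44.1% and 16.5% did. Btg1 held 0, where 61.1% of genes of like length held it. Both were searched on the transcript strand of GENCODE M21, in the longest transcript of each gene with a complete coding annotation. For Btg3 that is not its longest transcript, of 3013 bases, so its 3′ UTR length and matches depend on this choice. The TATTTAT sites of Btg3 and Cdkn1b are shown as windows of 30 bases, 5′ to 3′, with the motif in capitals, since these members held 2 or more.
Btg3 3′ UTR: ttggacttgagTATTTATatattgtgcatt
Btg3 3′ UTR: agtatataagtTATTTATacagaaggacat
Cdkn1b 3′ UTR: tttagtgcctgTATTTATccatcattactg
Cdkn1b 3′ UTR: cacatggttgcTATTTATttctacatgaag
Cdkn1b 3′ UTR: ttatactaactTATTTATgttaaaaagaga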

How the data were processed

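Raw counts for 44788 gene symbols in 3 libraries were deposited by the authors, and mm10 is the build named in the submitters' processing notes. The aligner, counting tool, annotation, strand setting and filters are named neither in the labels nor in the table. RNA was Trizol-extracted and sequenced on Ion Proton, per the labels' protocols. Counts were scaled with TMM factors of 0.962, 1.01 and 1.03 (edgeR 4.0.16, R 4.3.3) to CPM and divided by merged exon length from GENCODE M21, where 32177 of 44788 symbols matched, including all 10 members.

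Library differences were tested by chi-square of raw counts against effective library sizes, for genes with expected counts of at least 5, with Benjamini-Hochberg adjustment at 0.05. The test was run on simulated counts that held counting noise only, so its behaviour under spread between replicates was not checked. Ratios were tested by exact two-sided sign-flip. Copies were found with blastn 2.17.0 (members, at least 100 bases and 85% identity; genes set against them, at least 300 bases and 95%). The named genes were the members, the 2 highest genes per kb of each list, and genes in a ratio. In addition, overlapping genes, copies, single cell type markers, the 4 other CDK inhibitors, Ccne1, Ccne2, Ccna2 and Cdk2 were named after their values were seen. Cnot9 was measured under the older name Rqcd1 and Adgre1 under Emr1. Members and lists were chosen with earlier results of these data known. DESeq2 1.42.0 and other settings served as alternatives. A further 3′ UTR motif is not reported here.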

Additional observations from a re-analysis of the deposited data

How the results depend on the processing

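No pairing of samples between groups was possible because there is 1 group, and genes were paired only within libraries. With the spread between replicates in the noise, the count of members that differed between libraries was 0 and that of all genes 316. That spread was estimated from the same libraries, so low counts follow by construction. Leaving out 1 library gave 2 to 4 members and 3555 to 6403 genes. DESeq2's size factors, no scaling, scaling without the 18S copy, both other count filters, an adjusted p of 0.01 and removal of the length and GC trend kept both counts within 1.5 times. Without division by length the log2 ratios were 2.35 (Btg1 to Btg2), 5.18 (Btg1 to Btg3), -3.64 (Tob1 to Tob2), -0.28 (Cdkn1b to Cdkn1a), 0.45 (Cdkn2d to Cdkn2c), 2.48 (BTG and TOB to Cnot7 and Cnot8), -3.24 (CIP/KIP to D-type cyclins) and -6.68 (INK4 to Cdk4 and Cdk6), all in the same direction. That of Txnip to Txn1 turned to 0.01. The values differ by construction, since only the length term was dropped. With the longest transcript as length they were 4.45 (Btg1 to Btg3), -2.78 (Tob1 to Tob2), -1.41 (Cdkn1b to Cdkn1a), 1.88 (BTG and TOB to Cnot7 and Cnot8) and -5.96 (INK4 to Cdk4 and Cdk6). With the counts of Gm7334 added to Btg3, an alternative chosen after seeing the data, Btg1 to Btg3 was 2.85. DESeq2's gene-wise dispersion moved the biological coefficient of variation of 7 of 10 members. Leaving out 1 library moved no ratio by more than its SD. Counts of 23 to 48 limit Cdkn2c and Cdkn2d. Without an untreated group, no value measures a response to LZ-8.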
